A study of Homo sapiens with 6 samples.

Results

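The 4 mature miRNAs of the miR-191 and miR-425 cluster, hsa-miR-191-5p, hsa-miR-191-3p, hsa-miR-425-5p and hsa-miR-425-3p, were analysed in A549 cells with and without a deletion of the MIR21 locus. They were taken by name from the deposited table, 4 of 2588 mature miRNAs after rows of one name were summed, and each had a single row. A549 cells are a long-established line of human lung adenocarcinoma origin. Small RNA was sequenced from 3 libraries of control cells (Ctrl) and 3 libraries of MIR21-KO cells, all harvested 48 h after seeding and grown in the same serum-containing medium. The deletion was made with Cas9 and a pair of guide RNAs, and the methods describe knockout cells grown from single sorted cells. The methods speak of biological triplicates for the experiments in general. The labels do not say whether the 3 MIR21-KO libraries came from 1 clone or several, and p-values measure the spread between these libraries. The comparison asks how the other miRNAs of these cells stand when miR-21, their most abundant miRNA, is lost.

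miRNAs are cut from hairpin precursors by Drosha and Dicer, and 1 strand of the resulting duplex (5p or 3p) is usually retained in an Argonaute protein while the other is degraded. The retained strand finds its mRNA targets mainly through its seed, bases 2 to 8. MIR191 and MIR425 are neighbouring precursors that are transcribed with their host gene DALRD3, which encodes a protein needed for a methylation of arginine tRNAs. miR-191-5p is abundant in many tissues and is often used as a reference in miRNA measurements, while higher levels of it have been described in several carcinomas.

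On GRCh38 (GENCODE 29), MIR191 (ENSG00000207605.3) lies at chr3:49020618-49020709 and MIR425 (ENSG00000199032.1) at chr3:49020148-49020234, both on the minus strand and 383 bases apart. DALRD3 (ENSG00000178149.16) spans chr3:49015488-49022293 on the same strand. Both precursors lie in the first intron of 4 DALRD3 transcripts and overlap 0 exons of them. The mature sequences below, from RefSeq (GRCh38.p14), are shown because the results turn on how strands of 1 hairpin differ. The seed is in capitals.

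hsa-miR-191-5p: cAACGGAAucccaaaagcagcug
hsa-miR-191-3p: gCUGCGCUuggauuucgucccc
hsa-miR-425-3p: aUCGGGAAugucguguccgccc

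These 3 seeds differ from each other, and 0 other mature miRNAs of the RefSeq table share any of the 3. In the MIR191 hairpin below, the capitals mark the 5p strand (bases 16 to 38) and the 3p strand (bases 58 to 79), which are the pair of arms that the strand percentages further on compare.

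MIR191 hairpin: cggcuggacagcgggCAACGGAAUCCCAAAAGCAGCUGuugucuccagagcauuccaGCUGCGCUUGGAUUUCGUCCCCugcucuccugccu

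The deposited values are reads per 1000000 miRNA reads scaled by TMM, a factor per library that brings most miRNAs to a common level, and 1 read was worth 0.0720 to 0.270 of these units. The libraries held 5577287 to 9768152 miRNA reads. The deletion was visible in every library: miR-21-5p took 65.5, 68.5 and 69.4% of the Ctrl reads and 0.0156 to 0.0254% of the MIR21-KO reads. The libraries also parted in a way that the labels do not name. The first principal component of the 607 miRNAs that were tested (64.0% of their variance, 63.9% without the members) placed Ctrl 1, Ctrl 2 and MIR21-KO 3 on one side (set 1) and Ctrl 3, MIR21-KO 1 and MIR21-KO 2 on the other (set 2). Each set holds libraries of both conditions, so values are given for the conditions as a whole and within each set. The sets are not balanced: most Ctrl libraries are in set 1 and most MIR21-KO libraries in set 2. Part of any difference between the sets therefore enters the pooled difference between conditions. Each difference within a set rests on a single library of Ctrl or of MIR21-KO. The sets were read from these values and are not a batch known from the labels, and differences between them are described without a test. Set 2 libraries were also the deeper ones in all miRNA reads, with 7244400 to 9768152 reads against 5577287 to 6871585 in set 1. In reads other than miR-21 the sets overlapped, with 2966597 in Ctrl 3 of set 2 and 5575869 in MIR21-KO 3 of set 1. The part of depth in the differences between sets was not tested. The paper's methods state that small RNA libraries were made with a NEXTflex kit or by Novogene, and sequenced in Dresden or by Novogene. They do not say which route each library took, and the part of the route in the split was not tested.

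None of the 4 members passed the test between MIR21-KO and Ctrl. All 4 were among the 607 miRNAs tested with limma, and 0 of 4 had an adjusted p under 0.05, where 0.824% of all tested miRNAs (5 of 607, all lower in MIR21-KO) did. For 0 of 4 were the MIR21-KO and Ctrl values free of overlap, against 16.1% of all tested miRNAs. The intervals of the differences were wide, and changes of more than 2-fold in at least 1 direction lie within 3 of the 4. The exception was hsa-miR-191-3p, the scarcest member, and its narrower interval depends on the pseudocount. With a pseudocount of 0.1 its interval was −1.49 to 1.17.

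hsa-miR-191-5p, the main strand of its hairpin, had values of 320.5, 289 and 1092 in Ctrl 1, 2 and 3 and of 1484, 1392 and 361 in MIR21-KO 1, 2 and 3. Both conditions held libraries at the low and at the high level, and the groups overlapped. These values rested on 1071 to 20603 reads and placed it between rank 52 and rank 105 of the library's miRNAs. Ctrl averaged 567 ± 454 (SD, n = 3) and MIR21-KO averaged 1079 ± 624 (SD, n = 3). The difference was 0.96 (SE 0.76, 95% interval −0.80 to 2.72, adjusted p = 0.694, limma) on the log2(value + 1) scale, place 81 of the 607 miRNAs from the highest fold change. The spread within a condition followed the library sets. The set 1 libraries had a mean of 324 ± 35.7 (SD, n = 3) and the set 2 libraries a mean of 1322 ± 205 (SD, n = 3), a 4.06-fold difference between the sets. This difference was 1.84 within Ctrl and 1.99 within MIR21-KO on the log2 scale. Between the conditions, the log2 difference was 0.24 within set 1 and 0.40 within set 2, both smaller than the pooled one.

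hsa-miR-191-3p, the opposite strand of the same hairpin, was scarce, with 6, 4 and 18 reads in the Ctrl libraries and 17, 27 and 10 reads in the MIR21-KO libraries. Its values were 1.60, 1.08 and 2.54 in Ctrl, against 1.22, 1.95 and 1.30 in MIR21-KO, and both groups and both sets overlapped. The log2 difference was −0.12 (SE 0.34, 95% interval −0.92 to 0.68, adjusted p = 0.905, limma), with −0.017 within set 1 and −0.47 within set 2. At these read numbers a change of the size of the counting error could not be detected, and the pseudocount of 1 is of the order of the values, so the difference is understated.

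hsa-miR-425-5p had the highest mean of the members in Ctrl. Its values were 793, 2703 and 1057 in Ctrl, against 1629, 805 and 633 in MIR21-KO, from 2970 to 22613 reads. The single high value was that of Ctrl 2, the library in which hsa-miR-191-5p was lowest, and the groups overlapped. Ctrl averaged 1518 ± 1035 (SD, n = 3) and MIR21-KO averaged 1022 ± 532 (SD, n = 3), a log2 difference of −0.48 (SE 0.61, 95% interval −1.90 to 0.93, adjusted p = 0.784, limma). Unlike hsa-miR-191-5p, it did not part by library set. The sets had means of 1376 ± 1152 (SD, n = 3) and 1164 ± 422 (SD, n = 3), a log2 difference of 0.01. Between the conditions the difference was −1.21 within set 1 and 0.12 within set 2, and without Ctrl 2 the pooled difference was 0.037.

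hsa-miR-425-3p, from the same hairpin, went with hsa-miR-191-5p rather than with its own 5p strand when the library sets were compared. Its values were 5.88, 14.6 and 44.7 in Ctrl, against 41.6, 35.8 and 8.45 in MIR21-KO, from 22 to 578 reads. The low values were those of set 1 and the high values those of set 2, and the conditions overlapped. Ctrl averaged 21.7 ± 20.4 (SD, n = 3) and MIR21-KO averaged 28.6 ± 17.7 (SD, n = 3), a log2 difference of 0.53 (SE 0.85, 95% interval −1.46 to 2.52, adjusted p = 0.805, limma). The sets had means of 9.64 ± 4.48 and 40.7 ± 4.55 (SD, n = 3 each), a 4.14-fold difference. Within the sets the log2 difference between conditions was −0.13 and −0.21, with the opposite sign to the pooled one.

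A level that is higher in every set 2 library was common. Of the 332 miRNAs averaging at least 10, 132 (39.8%) were higher and 88 (26.5%) lower in every set 2 library than in every set 1 library, and the median log2 difference was 0.26. The differences of 2.02 for hsa-miR-191-5p and 2.05 for hsa-miR-425-3p are read beside this. Among markers of other cell types, the 3 stromal and endothelial miRNAs were miR-143-3p, miR-145-5p and miR-126-3p, all present in the table. They had a summed value of 3672 to 4258 in set 1 and of 1091 to 1318 in set 2. In this sum miR-126-3p (2442 to 3648 in set 1, 664 to 964 in set 2) and miR-143-3p (607 to 1226 and 237 to 476) were the larger part and were lower in every set 2 library. miR-145-5p was higher there, with 2.67 to 4.60 in set 1 and 9.31 to 13.0 in set 2. The liver miRNA miR-122-5p had 51.9 to 141 in set 1 and 7.90 to 16.2 in set 2. Their part in the differences between sets was not tested.

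The sums of the remaining marker lists overlapped between the sets, and their values are given by condition. The 7 epithelial miRNAs (miR-200a-3p, miR-200b-3p, miR-200c-3p, miR-141-3p, miR-429, miR-203a-3p and miR-205-5p) summed to 1383 to 2176 in Ctrl and 887 to 1276 in MIR21-KO, with miR-205-5p at 0 in 4 libraries. The 5 blood miRNAs (miR-451a, miR-486-5p, miR-223-3p, miR-150-5p and miR-142-5p) summed to 137 to 218 in Ctrl and 78.4 to 92.8 in MIR21-KO, and the 2 neural ones (miR-124-3p and miR-9-5p) to 388 to 746 and 155 to 177. The 3 muscle miRNAs (miR-1-3p, miR-133a-3p and miR-206) summed to 5.93 to 28.1 in Ctrl and 7.64 to 71.1 in MIR21-KO. The epithelial, blood and neural sums did not overlap between the conditions, and each was mostly a single marker. These were miR-200b-3p (1193 to 1953 in Ctrl, 530 to 1038 in MIR21-KO), miR-486-5p (135 to 175 and 75.7 to 83.6) and miR-9-5p. Other listed markers did not follow: miR-200a-3p, miR-200c-3p, miR-429, miR-203a-3p and miR-451a overlapped between the conditions. miR-200c-3p was highest in MIR21-KO 3, at 126. No list had a marker at 0 in every library.

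Ordered by scaled value, the members fell into 3 tiers in both conditions. Whether reads of different sequences stand in the proportion of their RNAs was not tested. hsa-miR-425-5p and hsa-miR-191-5p lay within their spread of each other. The first was the higher of them in 4 of 6 libraries. hsa-miR-425-3p followed, with its highest value (44.7) below the lowest of either 5p strand (289), and hsa-miR-191-3p came last, with a highest value of 2.54. All are scaled values for RNAs of 22 or 23 bases where RefSeq gives the sequence.

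Ratios of reads within a library do not depend on the scaling. Because miR-21-5p held 65.5% or more of the Ctrl reads, the members were set against all other miRNA reads. Together they took 0.177, 0.572 and 0.525% of these reads in Ctrl, against 0.505, 0.428 and 0.138% in MIR21-KO. Ctrl averaged 0.425 ± 0.216% (SD, n = 3) and MIR21-KO averaged 0.357 ± 0.193% (SD, n = 3), a difference of −0.0675 percentage points (two-sided exact permutation test, p = 0.5). Within set 1 the difference was −0.236 and within set 2 it was −0.0580. The groups overlapped, and the sign was positive without Ctrl 2 (0.00623) or without MIR21-KO 3 (0.0419). With miR-21 in the denominator the difference was 0.224.

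The balance of reads between the neighbouring hairpins varied widely. For each read of hsa-miR-425-5p there were 0.404, 0.107 and 1.03 reads of hsa-miR-191-5p in Ctrl, against 0.911, 1.73 and 0.570 in MIR21-KO. The log2 ratio averaged −1.49 ± 1.64 (SD, n = 3) for Ctrl and −0.05 ± 0.80 (SD, n = 3) for MIR21-KO, a difference of 1.44 (exact permutation test, p = 0.3). Without Ctrl 2 the difference was 0.58. The ratio was higher in every set 2 library than in every set 1 library, and the difference between conditions was 1.45 within set 1 and 0.28 within set 2. How often the ratios of other neighbouring pairs part by set was not counted.

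Of the miR-191 reads, hsa-miR-191-3p made up 0.498, 0.372 and 0.232% in Ctrl, against 0.0824, 0.140 and 0.359% in MIR21-KO, so that the 5p strand held nearly all reads of the hairpin. The counting intervals (95% Wilson, counting error only) reached from 0.228 to 1.08% in Ctrl 1 and from 0.0515 to 0.132% in MIR21-KO 1. The difference between the conditions was −0.173 percentage points, 0.367 ± 0.133% (SD, n = 3) against 0.194 ± 0.146% (SD, n = 3), with p = 0.2 in the exact permutation test. It was −0.0756 within set 1 and −0.121 within set 2, and with 1 library left out it ran from −0.256 (without MIR21-KO 3) to −0.108 (without Ctrl 1). All set 1 libraries lay above all set 2 libraries, but the counting intervals of the sets overlapped. They were 0.145 to 0.953% in Ctrl 2 of set 1 and 0.147 to 0.367% in Ctrl 3 of set 2.

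Of the miR-425 reads, hsa-miR-425-3p made up 0.735, 0.537 and 4.06% in Ctrl, against 2.49, 4.25 and 1.32% in MIR21-KO. Here the order of the sets was the reverse of that of miR-191, with the 3 set 2 libraries above the 3 set 1 libraries. Ctrl averaged 1.78 ± 1.98% (SD, n = 3) and MIR21-KO averaged 2.69 ± 1.48% (SD, n = 3), a difference of 0.911 percentage points (exact permutation test, p = 0.5). Within set 2 the difference was −0.687 and within set 1 it was 0.682. With 1 library left out it ran from 0.128 (without MIR21-KO 2) to 2.05 (without Ctrl 3), and it was 0.290 without Ctrl 2, 0.390 without Ctrl 1 and 1.60 without MIR21-KO 3. The 4 exact tests of these ratios had an adjusted p of 0.5 each, and with 3 libraries against 3 such a test cannot go below p = 0.1.

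Other hairpins varied as much in the share of their strands. Over 200 such precursors the SD of the log2 ratio of 3p to 5p reads across the 6 libraries had a median of 1.16 (quartiles 0.784 and 1.54), and miR-425 had 1.28 and miR-191 had 1.02. The 3p percentage was higher in every set 2 library than in every set 1 library for 52 of the 200 (26%), miR-425 among them. The share with the reverse order, that of miR-191, was not counted. The log2 ratio of 3p to 5p differed between the sets by 2.15 for miR-425 and by −1.63 for miR-191. For 0 of the 2 member precursors did the 3p percentage of MIR21-KO and Ctrl not overlap, against 5.5% of the 200 precursors.

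Under other settings, 0 of the 4 members passed the test in any alternative run. hsa-miR-191-5p had a positive fold change in all 18 alternatives, from 0.32 with a term for the library sets to 2.34 with values scaled to the total of all miRNA reads, and its lowest adjusted p was 0.0668 (limma, scaled to that total). That scaling lifted the median of all miRNAs to 1.34, from 0.24 with the deposited values, and relative to the median the fold change of hsa-miR-191-5p was 1.001 and 0.72, respectively. For hsa-miR-425-5p the fold change relative to the median was −0.44 under that scaling and −0.72 with the deposited values. For hsa-miR-425-3p the fold change was −0.17 with the term for the library sets and 1.81 when scaled to the total.

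**Figure D1:**
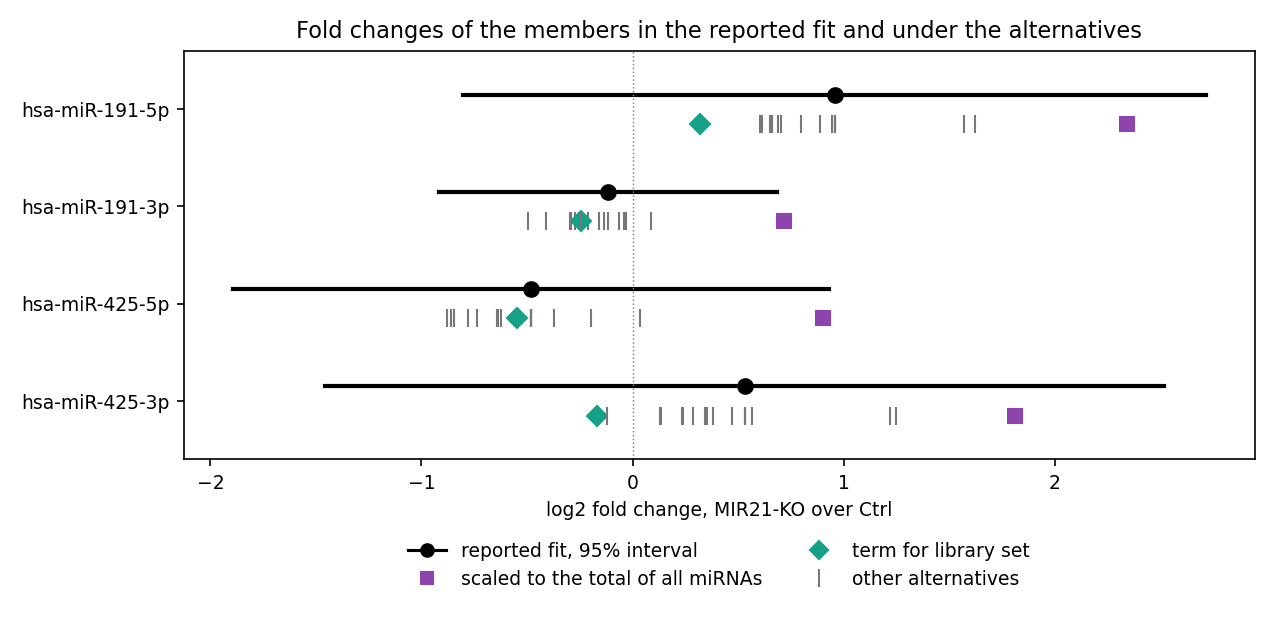
The log2 fold change of each member, MIR21-KO over Ctrl, with its 95% interval in the reported limma fit (black) and its value under each alternative below it (green for the term for library sets, purple for scaling to the total of all miRNAs, grey ticks for the rest). All 4 black intervals include 0, and every purple square lies to the right of its black point.

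The pattern of hsa-miR-191-5p over the 6 libraries was compared with that of each of the other 331 miRNAs averaging at least 10, by the SD of the log2 ratio (a low SD means that the ratio varied little). The 3 most alike were hsa-miR-125a-5p (0.13), hsa-miR-487b-3p (0.20) and hsa-miR-186-5p (0.21), where the median miRNA had 1.07. hsa-miR-125a-5p had values of 378, 293 and 1328 in Ctrl, against 1720.2, 1711 and 479 in MIR21-KO, the same low and high libraries as hsa-miR-191-5p. By the same measure hsa-miR-425-3p stood 48th (0.50) and hsa-miR-425-5p, from the neighbouring hairpin, 215th (1.40). The 6 libraries are the same for every miRNA and share depth and scaling, so these SDs are a description with no test.

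No miRNA followed hsa-miR-425-5p as closely. Its 3 most alike were hsa-miR-149-5p (0.58), hsa-miR-576-5p (0.58) and hsa-miR-378c (0.59), with a median of 1.16 over 331, and hsa-miR-425-3p, its own hairpin's other strand, stood 188th (1.23). hsa-miR-149-5p had 141, 259 and 130 in Ctrl, against 238, 176 and 187 in MIR21-KO, with Ctrl 2 highest in both miRNAs. For hsa-miR-425-3p, chosen after its values were seen, the most alike were hsa-miR-16-5p (0.21), hsa-miR-106b-5p (0.23) and hsa-miR-93-3p (0.25).

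As miR-191-5p serves as a reference miRNA, its spread between replicates was set beside that of 14 other miRNAs in use as references. Of these, 0 rose and 0 fell with limma, with a median log2 fold change of 0.49 (from −0.64 for hsa-miR-92a-3p to 1.11 for hsa-miR-320a) against 0.24 over all 607 miRNAs. The SD of log2 values between replicates, pooled over the 2 groups, was 1.11 for hsa-miR-191-5p, which is place 250 of 332 from the lowest. Among the 14 it ran from 0.235 for hsa-miR-423-3p to 1.37 for hsa-miR-16-5p, with a median of 0.542, and over all 332 miRNAs the median was 0.747. hsa-miR-425-5p had 0.824 and hsa-miR-425-3p had 1.29. Each group holds libraries of both sets, so these SDs include the difference between the sets. Over the libraries of set 1 and of set 2 the SD was 0.158 and 0.233 for hsa-miR-191-5p. It was 1.13 and 0.512 for hsa-miR-425-5p, and 0.596 and 0.161 for hsa-miR-425-3p. Such SDs are not given here for the other references. The reference list was chosen with earlier results of these data known, and of its 14 members 8 were higher and 2 lower in every set 2 library.

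Within 5 Mb of the cluster on chromosome 3, 18 other precursors gave 28 mature miRNAs in the table, 11 of them at 0 in every library. Of the 5 that were tested, 0 passed, with a median log2 fold change of 0.27. Only hsa-let-7g-5p and hsa-miR-138-5p had a mean of at least 100. hsa-let-7g-5p, a member of the let-7 family, had values of 4318, 2925 and 7224 in Ctrl, against 10272, 7805 and 5665 in MIR21-KO (log2 fold change 0.77, SE 0.45, adjusted p = 0.592, limma). hsa-miR-138-5p, which RefSeq also places at a second locus, had 86.5, 175 and 780.5 in Ctrl, against 986, 697 and 86.2 in MIR21-KO (0.77, SE 1.11, adjusted p = 0.792). Both were higher in every set 2 library than in every set 1 library, as hsa-miR-191-5p and hsa-miR-425-3p were. So were 39.8% of all miRNAs averaging at least 10. The remaining tested neighbours, which were scarcer and include the other strands of these hairpins, were not.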

How the data were processed

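Small RNA libraries of A549 cells (3 Ctrl, 3 MIR21-KO) were compared. Per the labels, reads were handled with cutadapt 1.14, Bowtie2 2.3.2, SAMtools 1.5, featureCounts 1.5.3 and edgeR 3.18.1 on hg38. How reads fitting several loci were counted is not given in the sources used here. The authors deposited a signal per miRNA, the TMM-scaled count per 1000000, beside their own fold changes and p-values, which were not used. All values (100%) were whole multiples of 1 read, so reads were recovered, and TMM values recomputed from them differed by at most 4.92e-15 of their size. TMM removes a shift shared by most miRNAs.

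Of 2813 rows, those of one name were summed (2588 miRNAs). limma 3.58.1 (R 4.3.3, lmFit and eBayes with trend) was fitted on log2(value + 1) with condition as the only term, over the 607 miRNAs that reached 1 in 3 or more of the 6 libraries, with Benjamini-Hochberg adjustment. Fold changes of scarce miRNAs are understated. Two-sided exact permutation tests served for the ratios (scipy 1.17.1), adjusted over the 4. Alternatives comprised 4 other scalings, a pseudocount of 0.1 or 10, a filter of a mean of at least 10 or none, edgeR 4.0.16 and DESeq2 1.42.0 on the recovered reads, a replicate block, a term for library sets and each library left out. The procedure was tested on simulated data. Depth was 5577287 to 9768152 reads. No replicates were near-identical. Sequences were matched to RefSeq by name (2281 of 2588 miRNAs, 3 of 4 members).

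The members and lists were chosen with earlier results of these data known. By rule, named miRNAs are the members, miR-21, listed references with the lowest and highest spread, the 3 most alike (mean of at least 10) to hsa-miR-191-5p and to hsa-miR-425-5p, and chromosome 3 neighbours with a mean of at least 100. The members of the marker lists (epithelial, stromal and endothelial, liver, blood, neural, muscle) are named in the results. Outside the rule, and after their values were seen, the references with the lowest and highest fold change and the 3 most alike to hsa-miR-425-3p were also named. Python 3.11.15, numpy 2.4.6, pandas 2.3.3 and matplotlib 3.10.9 were used.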

Additional observations from a re-analysis of the deposited data

How the results depend on the processing

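No member passed the test under any alternative, and with 3 libraries a group and wide spread that says little about stability. The fold change of hsa-miR-191-5p stayed positive throughout, at 0.60 to 1.62 with a library left out. The sign of the others turned: hsa-miR-191-3p was 0.72 when scaled to the total of all miRNA reads and −0.30 to 0.086 with a library left out (it could not be fitted with a mean of at least 10), hsa-miR-425-5p was 0.90 and −0.88 to 0.037, and hsa-miR-425-3p was −0.17 with the set term and −0.12 to 1.25. The cause was not tested. Calls over all miRNAs, 5 in the reported fit, numbered 3 with a pseudocount of 10, 203 when scaled to the total (196 higher, 7 lower), 9 when centred on the median, 23 with DESeq2 (no adjusted p for 7 miRNAs), 110 with the set term (71 higher, 39 lower), whose p-values are not independent of the sets, and 2 to 5 with a library left out. Replicate numbers did not pair the libraries (r of their deviations −0.786, −0.604 and −0.878), and the replicate block gave 2 calls and changed no call of a member. The share of the members was −0.191 to 0.0419 percentage points with a library left out and 0.224 with miR-21 in the denominator, and the miR-425-3p percentage was −0.687 within set 2. The number of libraries limits these comparisons, and for hsa-miR-191-3p so do its 4 to 27 reads.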

Other observations

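Neighbouring precursors within 10 kb on the same strand were compared by the more abundant mature strand that RefSeq places at a single locus, where both averaged at least 10 and had reads in every library. The comparison was chosen after the values were seen and is a description. Over 49 such pairs the SD of the log2 ratio across the 6 libraries ran from 0.215 to 2.99 with a median of 0.816. hsa-miR-425-5p and hsa-miR-191-5p had an SD of 1.40, place 8 from the highest. hsa-miR-425-5p was not matched by name among the RefSeq mature sequences, so its single locus does not come from such an entry.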
